A study of Homo sapiens with 12 samples.

Results

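Nalm6 and RS4;11, a pair of cell lines of B-cell precursor acute lymphoblastic leukemia (BCP-ALL), were compared by RNA level after transduction with lentiviral shRNA vectors against CREB. Members were the 6 arrays of these lines out of 12 in the series, chosen by cell line and vector and not by any measured value. Each line gave 3 arrays, labelled scrambled, shCREB2 and shCREB3, and the differences were taken within a line, so that each shCREB array was set against the scrambled array of its own line. Scrambled is a control hairpin, and shCREB2 and shCREB3 are separate hairpins against CREB. All were carried by a pLKO.1 vector that had been modified to express mCherry, and stably transduced cells were expanded before RNA isolation. Both lines are established lines grown in culture, and each combination of line and vector was measured once, so a single array has no replicate and the 2 hairpins of a line stand in as its replicates. The p-values below therefore measure the spread between hairpins, not between cultures. In the test over both lines, the error also holds the difference in response between the lines. In the tests per line, the error is pooled over both lines.

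CREB, encoded by CREB1, is a transcription factor that binds cAMP response elements in promoters. Kinases downstream of cAMP, MAPK and Akt signalling phosphorylate it, and it then recruits the coactivators CBP and p300. BCP-ALL cells are transformed B-cell precursors that still carry the surrogate light chain of the pre-B-cell receptor and the recombination machinery of early B cells. RS4;11 carries a KMT2A-AFF1 fusion, whereas Nalm6 does not, and it is below also called the KMT2A line.

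Between 14320 and 15463 of 47323 probes were detected per array (detection p-value under 0.01), and 11940 genes were detected on at least 3 of the 6 arrays and kept. All values below are log2 of the normalized gene values. The array labelled Nalm6 shCREB2 correlated at most at 0.970 with another array, against at least 0.987 for each of the other 5. Of 16 B-cell precursor markers, 15 were detected on each Nalm6 array and 13 on each RS4;11 array. PAX5 was detected on none, and MME and BLNK only in Nalm6. Between 4 and 9 of 19 T-cell markers and between 1 and 3 of 14 myeloid markers were detected per array, with CSF1R at 9.09 to 9.27 in the KMT2A line and CD33 at 8.23 to 9.03 in Nalm6. The summed normalized signal of the B-cell precursor markers was 37032 to 50498 in Nalm6, lowest with shCREB2, and 26983 to 29010 in the KMT2A line. Of 11 erythroid markers, HBA2 was detected on the Nalm6 scrambled array (8.55) and HBB too (7.38), and neither was detected on the 2 Nalm6 shCREB arrays (6.92 to 7.01). In the KMT2A line, HBA2 was detected with shCREB3 only (7.18). The part of this haemoglobin signal in the Nalm6 differences was not tested.

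The CREB1 gene value was not lower in Nalm6. Its log2 level was 10.00 on the Nalm6 scrambled array, 10.23 on the array labelled shCREB2 and 10.18 on the array labelled shCREB3. In RS4;11 the levels were 10.13, 9.91 and 10.39 in the same order. Only shCREB2 in the KMT2A line thus lay below its control, with a difference of −0.23, and the other 3 shCREB arrays lay above theirs. The limma estimate over both lines was 0.11 (standard error 0.15, adjusted p = 0.947), with 0.20 in Nalm6 (adjusted p = 0.896) and 0.01 in the KMT2A line (adjusted p = 1.0). The CREB1 value was taken as a mean over 5 probes. Of these, 3 were detected on the Nalm6 scrambled array and 2 on each other array, both Nalm6 shCREB arrays included. Probes at background thus enter the value, and the CREB1 probes were not compared singly. The arrays measure mRNA and not CREB protein. Because this gene value was not lower on 3 of 4 arrays, the arrays are named below as labelled. Each direction is a direction of a labelled array.

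Differences from scrambled were larger in Nalm6 than in RS4;11 with either hairpin. On the array labelled Nalm6 shCREB2, 120 genes were at least 2-fold higher (1.01% of all genes kept) and 173 at least 2-fold lower (1.45%) than on the scrambled array. Nalm6 shCREB3 had 23 genes higher (0.193%) and 37 lower (0.31%). In the KMT2A line no gene reached 2-fold in either direction with either hairpin (0%), and the largest differences were 0.85 and −0.80 for shCREB2 and 0.71 and −0.87 for shCREB3. At 1.5-fold the arrays had 1282, 397, 12 and 11 genes in the same order. No background was subtracted from these values. With background subtracted, the 2-fold counts were 1472 and 504 in Nalm6 and 48 and 41 in the KMT2A line, in the order shCREB2 and shCREB3, so the order of the lines was kept but the counts of the KMT2A line were no longer 0.

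**Figure D1:**
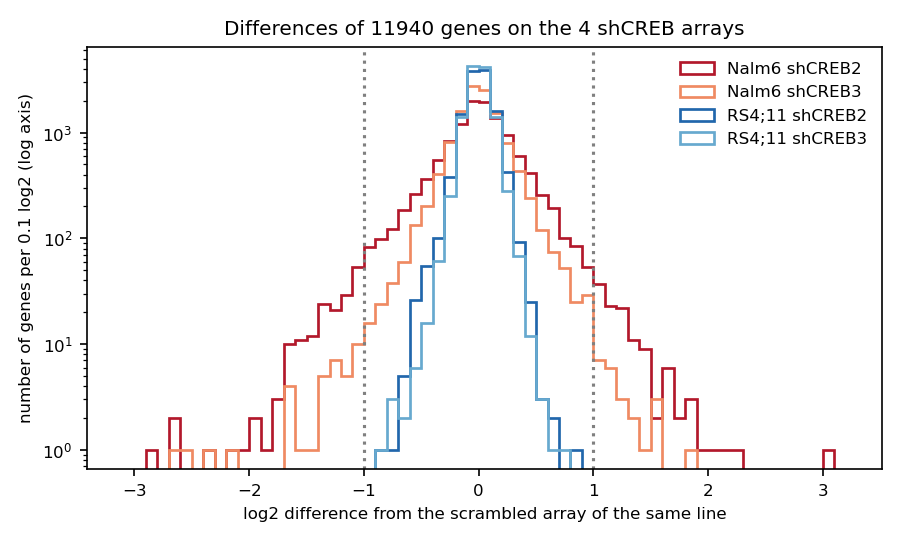
Number of genes (log axis) by log2 difference from the scrambled array of the same line, for 11940 genes on each of the 4 shCREB arrays, with dotted lines at 2-fold. The Nalm6 shCREB2 distribution is the broadest and both distributions of the KMT2A line lie within the dotted lines.

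The median absolute log2 difference was 0.175 for Nalm6 shCREB2 and 0.116 for Nalm6 shCREB3, against 0.071 and 0.062 in RS4;11. The SD of the differences over genes was 0.376 and 0.249 in Nalm6 and 0.124 and 0.107 in the KMT2A line. Both Nalm6 arrays lay above both arrays of the KMT2A line. Over the same genes, the T-ALL lines Jurkat and Molt4 lay in between by SD (0.171 to 0.232). These genes were kept by detection in Nalm6 and RS4;11 and not in the T-ALL lines. By genes past 2-fold, Jurkat had 39 and 15 and Molt4 64 and 30 (shCREB2 and shCREB3). Molt4 shCREB2 thus did not lie below Nalm6 shCREB3, which had 60. For 80.4% of genes the mean absolute difference was larger in Nalm6 than in the KMT2A line. These sizes are descriptions with no test, since each combination was measured once.

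No gene passed limma at an adjusted p under 0.05 for both lines together, for Nalm6, for RS4;11 or for the difference between the lines (0% in each). At an unadjusted p under 0.05 there were 374 genes for both lines, 725 for Nalm6, 26 for the KMT2A line and 197 for the difference. The smallest adjusted p was 0.942, 0.73, 1.0 and 1.0 in that order. The tests per line share an error pooled over both lines (median standard error 0.13 in each). The shCREB2 and shCREB3 arrays correlated at 0.968 in Nalm6 and at 0.996 in the KMT2A line. The wider spread of the Nalm6 hairpins thus enters the test of the KMT2A line, and its low count does not measure an absent response. The t-test named in the methods, run unpaired and unadjusted, called 98 genes higher and 92 lower over both lines, and 0 after Benjamini-Hochberg adjustment. The genes below are therefore described by their values on each array, and none is called changed. Leaving out Nalm6 shCREB2 gave 108 genes past the test in Nalm6 and leaving out Nalm6 shCREB3 gave 2323, with 391 for the difference between lines. In these fits the lone Nalm6 array is assumed to vary as little as the arrays of the KMT2A line.

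Some genes differed in the same direction on all 4 shCREB arrays. There were 1551 such genes higher (13%) and 1500 lower (12.6%), and 7 higher and 13 lower by at least 0.25 on each array. Both differences of a line share its scrambled array, so a value peculiar to that array moves both the same way. How many genes would share a direction with no response was not tested. USP38, a deubiquitinase, led the lower genes. Its level was 9.43 on the Nalm6 scrambled array, 8.02 with shCREB2 and 8.12 with shCREB3, and 8.86, 8.34 and 8.41 in RS4;11. The 4 shCREB arrays were below both scrambled arrays, and the Nalm6 differences (−1.41 and −1.31) exceeded those of the KMT2A line (−0.52 and −0.45). RFC3, a subunit of the replication factor C clamp loader, behaved alike, with 8.64, 7.34 and 7.48 in Nalm6 and 8.60, 8.17 and 8.23 in the KMT2A line. IDH3A, a subunit of the NAD-dependent isocitrate dehydrogenase of the TCA cycle, had 8.36, 7.51 and 7.60 in Nalm6 and 8.61, 8.20 and 8.28 in the KMT2A line. For each of these 3 genes the shCREB arrays were below the control of their line and close to each other within a line. The adjusted p over both lines was 0.942 by limma for each of them.

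The other genes lower on all 4 arrays under the naming rule differed between hairpins or had smaller differences. PSAT1, which makes phosphoserine in serine synthesis, differed by −1.97 and −0.46 in Nalm6 and by −0.55 and −0.31 in RS4;11, and FAM64A (PIMREG), a mitotic regulator, by −1.95, −0.55, −0.63 and −0.29. Both were thus lower with shCREB2 than with shCREB3 in either line. CD163L1, a scavenger receptor that the table lists also under its older symbol M160, had differences of −0.37 and −0.75 in Nalm6 and −0.59 and −0.60 in the KMT2A line. TOR3A, a torsin ATPase, differed by −0.36, −0.33, −0.56 and −0.29. For CD163L1 and TOR3A the differences of both lines overlapped in size.

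Among the genes higher on all 4 arrays, DNAJB1, an HSP40 cochaperone, ranked first by its smallest difference. Its level was 8.21, 9.08 and 9.17 in Nalm6 (scrambled, shCREB2, shCREB3) and 8.80, 9.21 and 9.18 in RS4;11. HSD17B10, a mitochondrial dehydrogenase also listed under its older symbol HADH2, had 8.13, 9.30 and 9.01 in Nalm6 and 8.40, 8.92 and 8.76 in the KMT2A line. MBD6, a methyl-CpG-binding domain protein, had 8.65, 9.52 and 9.46 in Nalm6 and 8.61, 8.99 and 8.90 in the KMT2A line. All shCREB arrays lay above their own control for these genes, and the Nalm6 differences (0.81 to 1.16) exceeded those of the KMT2A line (0.30 to 0.52). SSBP2, a single-stranded DNA-binding protein, PDIA3P, a pseudogene, and BRP44 (MPC2), a subunit of the mitochondrial pyruvate carrier, differed by 0.25 to 0.55 on every array, and those of BRP44 and PDIA3P lay between 0.25 and 0.32 in both lines.

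**Figure D2:**
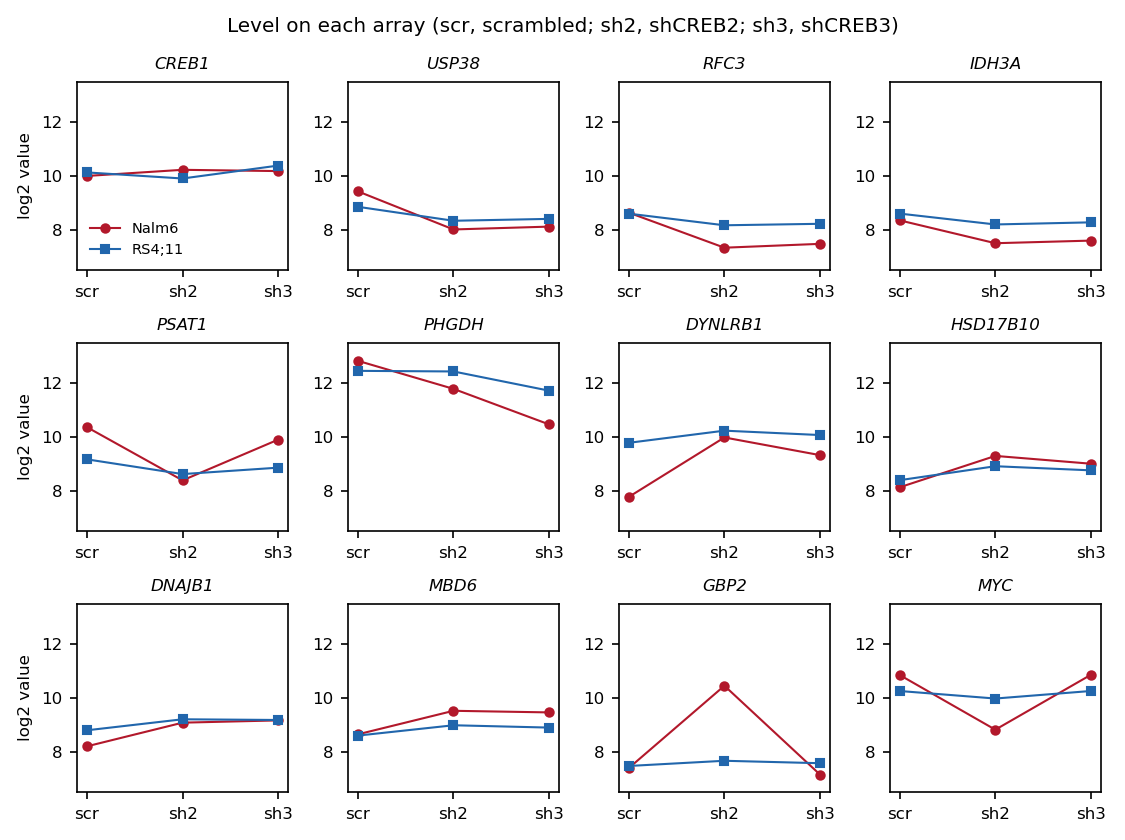
Log2 value of 12 genes on the 3 arrays of Nalm6 (circles) and of RS4;11 (squares), each point being 1 array. CREB1 is not lower in Nalm6, USP38, RFC3 and IDH3A are lower on both shCREB arrays of both lines, and GBP2 and MYC depart most on Nalm6 shCREB2.

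Promoters were read for a few of these genes from RefSeq (GRCh38.p14, a window mostly upstream of the start of the gene), and capitals mark the cAMP response element TGACGTCA, searched on both strands. More windows were searched than are shown. Those shown are of USP38, RFC3 and IDH3A, which were lower on all 4 arrays, and of DYNLRB1, which was higher. RFC3 lies on chromosome 13 (chr13:33817899-33818198, plus strand), USP38 on chromosome 4 (chr4:143184667-143184966, plus strand), IDH3A on chromosome 15 (chr15:78149112-78149411, plus strand) and DYNLRB1 on chromosome 20 (chr20:34515352-34515651, plus strand).
RFC3: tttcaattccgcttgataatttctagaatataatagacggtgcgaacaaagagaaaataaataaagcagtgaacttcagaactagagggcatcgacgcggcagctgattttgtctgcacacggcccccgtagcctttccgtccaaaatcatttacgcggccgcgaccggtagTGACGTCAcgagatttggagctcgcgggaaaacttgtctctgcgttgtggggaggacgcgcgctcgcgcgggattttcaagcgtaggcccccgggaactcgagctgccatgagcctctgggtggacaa
USP38: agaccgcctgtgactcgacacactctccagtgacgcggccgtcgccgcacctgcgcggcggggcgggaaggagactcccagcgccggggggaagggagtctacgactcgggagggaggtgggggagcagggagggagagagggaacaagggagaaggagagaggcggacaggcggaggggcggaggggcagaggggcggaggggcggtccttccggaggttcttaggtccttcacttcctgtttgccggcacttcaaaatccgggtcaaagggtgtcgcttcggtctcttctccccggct
IDH3A: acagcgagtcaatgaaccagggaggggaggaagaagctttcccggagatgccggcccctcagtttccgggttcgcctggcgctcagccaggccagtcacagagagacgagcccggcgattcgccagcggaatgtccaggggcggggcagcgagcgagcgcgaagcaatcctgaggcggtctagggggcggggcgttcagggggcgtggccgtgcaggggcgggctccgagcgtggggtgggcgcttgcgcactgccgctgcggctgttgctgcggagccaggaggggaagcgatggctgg
DYNLRB1: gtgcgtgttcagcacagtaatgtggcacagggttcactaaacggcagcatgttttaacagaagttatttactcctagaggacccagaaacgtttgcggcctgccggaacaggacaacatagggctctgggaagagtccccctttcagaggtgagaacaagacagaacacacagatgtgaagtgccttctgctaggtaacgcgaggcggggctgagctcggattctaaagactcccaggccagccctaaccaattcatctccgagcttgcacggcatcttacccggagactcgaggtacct
The RFC3 window held 1 full element, which started at position −78 from the start of the gene, and the other 3 windows held none. The windows of PSAT1, PHGDH, TK1, RAB8B, ARPC1A, DNAJB1, HSD17B10, MBD6 and CREB1 were searched too, and none of them held the element. Of 27305 promoters in the table, 540 (1.98%) held the element and 1003 (3.67%) held the amino acid response element TGATGNAA. Of the 8026 genes kept that had a promoter in the table, 3.43% held the cAMP response element. No share was compared, because only 8026 of 11940 genes kept had a promoter, as did 2 of the 5 genes at least 2-fold higher and 5 of the 6 at least 2-fold lower on both Nalm6 arrays.

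In Nalm6 alone, 5 genes were at least 2-fold higher on both shCREB arrays (0.0419%) and 6 at least 2-fold lower (0.0503%). The higher genes were DYNLRB1, VPS37C, ARPC1A, MFSD3 and PRAGMIN (PRAG1, named after its values were seen), and the lower genes were PHGDH, GPT2, USP38, TK1, RFC3 and RAB8B. Both Nalm6 differences share the scrambled array, so a value peculiar to that array enters both. DYNLRB1, a light chain of the cytoplasmic dynein motor, was at 7.78 with scrambled, 9.98 with shCREB2 and 9.33 with shCREB3 (differences 2.21 and 1.55). In RS4;11 it was at 9.78, 10.23 and 10.07, so that the Nalm6 scrambled array was the lowest of the 6. ARPC1A, a subunit of the actin-nucleating ARP2/3 complex, had the same pattern, with 9.48, 10.86 and 10.62 in Nalm6 and 10.70, 10.92 and 10.86 in the KMT2A line. In the T-ALL lines, each set against its own scrambled array, both genes were also higher with shCREB2 and shCREB3. DYNLRB1 differed there by 1.0 and 1.08 in Jurkat and by 1.51 and 1.25 in Molt4, and ARPC1A by 0.75 and 0.86, and by 0.71 and 0.56. The part of the Nalm6 scrambled array in these differences was not tested.

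VPS37C, a subunit of the ESCRT-I sorting complex, differed by 1.62 and 1.07 in Nalm6, MFSD3 by 1.28 and 1.14, and FAM43A by 0.92 and 1.80. STAP1, an adaptor of B-cell receptor signalling that the table also lists as BRDG1, had 9.74, 11.54 and 10.50 in Nalm6 and 7.03 (not detected), 7.10 and 7.16 in the KMT2A line. The BRDG1 entry had 8.62, 10.41 and 9.09 in Nalm6 (differences 1.79 and 0.47) and was not detected in the KMT2A line. By its own values that entry was among the genes named for Nalm6 shCREB2 beyond the other arrays. EVI5L, a Rab GTPase-activating protein, MKNK2, a kinase of the translation factor eIF4E, ENPP2, which makes lysophosphatidic acid, and RN7SK, the RNA that sequesters the elongation factor P-TEFb, differed by 1.44 to 1.61 with shCREB2 and by 0.68 to 0.93 with shCREB3. Of the 10 named higher genes, FAM43A was the only one with a larger difference for shCREB3. In the KMT2A line the 10 genes had differences between −0.03 and 0.45, and ENPP2 was not detected there.

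Among the lower genes, TK1, the thymidine kinase of S phase, was at 10.13 with scrambled, 8.89 with shCREB2 and 8.86 with shCREB3 in Nalm6, and at 9.67, 9.72 and 9.46 in RS4;11. FEN1, the flap endonuclease of lagging strand synthesis, differed by −0.88 and −1.32 in Nalm6 and by 0.04 and −0.28 in the KMT2A line. HMMR, a spindle protein and hyaluronan receptor, differed by −1.51 and −0.96. The Nalm6 arrays of these 3 genes were clearly below their control and the arrays of the KMT2A line were near theirs. RAB8B, a Rab GTPase of vesicle transport, differed by −1.23 and −1.02 in Nalm6 and −0.39 and −0.23 in the KMT2A line, and ZCCHC9 by −1.53, −0.68, −0.42 and −0.23.

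Genes of serine synthesis and of the amino acid response were among the lowest in Nalm6. PHGDH, the first enzyme of serine synthesis from glucose, was at 12.82 with scrambled, 11.78 with shCREB2 and 10.46 with shCREB3 in Nalm6, and at 12.45, 12.43 and 11.71 in RS4;11. It was thus lowest with shCREB3 in either line, unlike PSAT1, which was lowest with shCREB2. GPT2, a mitochondrial alanine aminotransferase, was at 10.29, 8.63 and 9.21 in Nalm6 and 10.29, 10.10 and 9.90 in the KMT2A line. SHMT2, which passes a carbon unit from serine to folate, differed by −0.29 and −0.55 in Nalm6 and −0.01 and −0.16 in the KMT2A line. Of 15 genes of serine, glycine and folate metabolism, 13 were lower with each hairpin in Nalm6 (medians −0.38 and −0.19), and 8 and 11 were lower in the KMT2A line (medians −0.01 and −0.05). Of 28 genes of the ATF4 amino acid response, 25 and 20 were lower in Nalm6 (medians −0.33 and −0.22) and 15 and 25 in the KMT2A line (medians 0.00 and −0.09). The medians over all genes kept lay between 0.00 and 0.01, and no gene of either list passed the test.

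Glycolysis and the TCA cycle had no common direction. GPI, the glucose phosphate isomerase, differed by −0.42 and −0.63 in Nalm6 and by −0.13 and −0.17 in RS4;11. ALDOC, an aldolase, differed by −0.41 and −0.57, and by −0.14 and −0.11. ENO1, an enolase, differed by −0.68 and −0.42 in Nalm6, whereas its paralog ENO3 was higher by 0.44 and 1.00. Of 23 genes of glucose uptake, glycolysis and lactate, 14 were lower with shCREB2 and 16 with shCREB3 in Nalm6 (medians −0.10 and −0.24). In the TCA cycle, DLAT, a subunit of pyruvate dehydrogenase, differed by −1.44 and −0.54 in Nalm6 and −0.38 and −0.16 in the KMT2A line. In contrast, the NADP-dependent isocitrate dehydrogenases IDH1 (1.13 and 0.83) and IDH2 (1.05 and 0.62) were higher in Nalm6 and also, by 0.09 to 0.29, in the KMT2A line. The 27 genes of pyruvate dehydrogenase and the TCA cycle had medians of 0.00 and −0.02 in Nalm6.

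Of 20 genes kept that the study names, 16 were lower and 3 were higher on all 4 shCREB arrays. These genes were picked by the study from arrays that include these 6, so their direction is not independent evidence. The higher genes were BAD, BNIP2 and DEDD2, which promote apoptosis, with differences of 0.18 to 0.58 in Nalm6 and 0.07 to 0.18 in RS4;11. UBE2V1 and CSNK1A1 differed by no more than 0.09 in size on any array. The remaining gene, CREB1, is described above.

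The array labelled Nalm6 shCREB2 lay farther from its control than the other 3 shCREB arrays for a set of genes. GBP2, an interferon-inducible guanylate-binding protein, had the largest difference of all, with 7.40 with scrambled, 10.45 with shCREB2 and 7.16 with shCREB3 in Nalm6 and 7.48 to 7.67 in RS4;11. KLF2, a factor of lymphocyte quiescence, was at 9.96, 12.05 and 9.32 in Nalm6 and at 8.80, 8.39 and 8.56 in the KMT2A line. RGS2, a regulator of G-protein signalling, was at 7.81, 9.96 and 7.28 in Nalm6 and 7.27 to 7.34 in the KMT2A line. Only Nalm6 shCREB2 was high for these 3 genes, and Nalm6 shCREB3 lay below its control for each. KLF2 was below its control on the other 3 shCREB arrays, by −0.65, −0.42 and −0.24. The granzymes GZMA (1.72) and GZMK (1.69), LY96, the partner of the lipopolysaccharide receptor (1.86), the glucose transporter SLC2A3 (1.66), PPP1R16B (1.67) and GLG1 (1.48) were also higher on that array, with differences between −0.15 and 0.31 on the other 3. GZMK was not detected in the KMT2A line.

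On the low side, PRDX3, a mitochondrial peroxiredoxin, was at 11.38 with scrambled, 8.53 with shCREB2 and 11.36 with shCREB3 in Nalm6. In RS4;11 it was at 11.34, 10.67 and 11.23, so it was lowest with shCREB2 in both lines. TXNDC12, a thioredoxin of the endoplasmic reticulum, differed by −2.62 and −0.05 in Nalm6 and by −0.50 and 0.06 in the KMT2A line. DCTPP1, a nucleotide pyrophosphatase, differed by −2.60, −0.30, −0.50 and −0.10, and LYAR, a nucleolar protein, by −2.35, −0.09, −0.48 and 0.01. For these 4 genes both shCREB2 arrays were lower than both shCREB3 arrays. They were also low with shCREB2 in the T-ALL lines Jurkat and Molt4, where PRDX3 differed by −1.99 and −2.31, DCTPP1 by −1.33 and −1.56, TXNDC12 by −1.06 and −1.25 and LYAR by −1.03 and −1.33. MRPL52 (−1.88), a mitochondrial ribosomal protein, HNRNPA0 (−1.79) and AURKA (−1.80), a mitotic kinase, were also low on Nalm6 shCREB2, with −0.36, −0.32 and −0.30 with shCREB2 in the KMT2A line. In Jurkat and Molt4, AURKA differed by −0.64 and −0.97 with shCREB2 and by 0.12 and −0.01 with shCREB3.

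MYC, a growth-promoting transcription factor, was at 10.85, 8.82 and 10.86 in Nalm6 and at 10.26, 9.98 and 10.26 in RS4;11. DNTT, the terminal transferase of early lymphocytes, was at 13.30, 11.11 and 13.03 in Nalm6 and at 8.06, 7.80 and 7.95 in the KMT2A line, where its level was low throughout. SCD, which desaturates fatty acids, differed by −1.68 with shCREB2 and 0.31 with shCREB3. RAG1, a subunit of the recombinase, differed by −1.37 and −0.51 in Nalm6, and MME (CD10), a surface antigen of B precursors named after its values were seen, was at 9.50, 8.0 and 9.50. In Jurkat and Molt4, DNTT differed by −0.54 and −1.06 with shCREB2 and by 0.41 and 0.07 with shCREB3. Shifts in the mixture of cells and in RNA per cell cannot be told apart in these bulk samples.

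**Figure D3:**
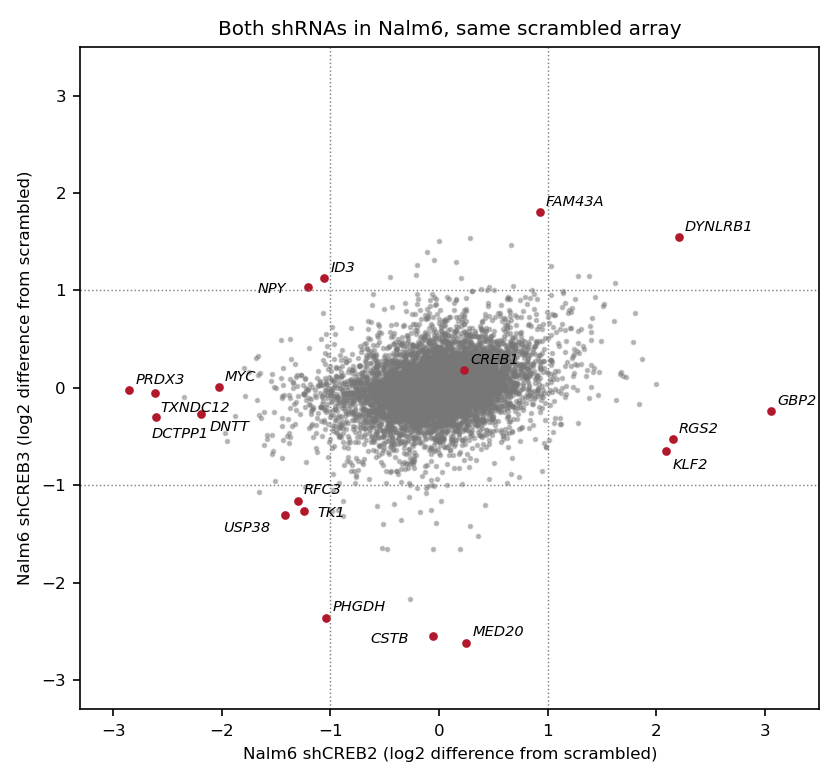
Log2 difference of each gene on Nalm6 shCREB2 (horizontal) and Nalm6 shCREB3 (vertical), both against the same scrambled array, with dotted lines at 2-fold and named genes in red. GBP2, KLF2, RGS2, PRDX3 and MYC lie along the horizontal axis, CSTB and MED20 along the vertical axis, and DYNLRB1, USP38, RFC3, TK1 and PHGDH are past 2-fold on both.

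Proliferation genes were low on this array more than on the others. Of 50 genes of G2/M and mitosis, 50 were lower on Nalm6 shCREB2 (median −0.80, 16 of them at least 2-fold), whereas 24 were lower on Nalm6 shCREB3 (median 0.00, 1 at least 2-fold). In RS4;11, 26 and 31 were lower (medians −0.03 and −0.02). For DNA replication and G1/S, 50 of 51 genes were lower on Nalm6 shCREB2 (median −0.73, 13 at least 2-fold) and 44 on Nalm6 shCREB3 (median −0.21, 3 at least 2-fold). In the KMT2A line the counts were 28 and 29 (medians −0.03 and −0.02). Of all genes kept, 1.45% were at least 2-fold lower on Nalm6 shCREB2 and 0.31% on Nalm6 shCREB3, and 5827 and 6068 of 11940 were lower at all. MCM10, which loads the replicative polymerase, differed by −1.61 and −0.25 in Nalm6, and CCNA2, a cyclin of S and G2, by −1.02 and 0.11. Of 21 genes of quiescence and cell cycle inhibition, 17 were higher on Nalm6 shCREB2 (median 0.34) and 16 on Nalm6 shCREB3 (median 0.04). BTG2, an antiproliferative gene, differed by 1.33 and 0.40, and CDKN2D, an inhibitor of CDK4 and CDK6, by 0.82 and 0.64. Cholesterol and fatty acid genes were lower on Nalm6 shCREB2 for 26 of 31 genes (median −0.29) and on Nalm6 shCREB3 for 12 (median 0.07), with HMGCS1 at −1.45 and −0.10.

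Some genes were low with shCREB3 and not, or less, with shCREB2. MED20, a subunit of the Mediator complex, chosen after its values were seen as the lowest gene on Nalm6 shCREB3, was at 10.68 with scrambled, 10.93 with shCREB2 and 8.06 with shCREB3. In RS4;11 it was at 10.60, 10.64 and 9.84. CSTB, an inhibitor of cathepsins, was at 10.01, 9.96 and 7.46 in Nalm6 and at 11.13, 11.12 and 10.25 in the KMT2A line, where it was the lowest gene with shCREB3. Both genes were thus low with shCREB3 alone in either line. The shCREB3 arrays of Jurkat and Molt4 were low for them too, with −2.31 and −2.52 for CSTB and −1.86 and −1.97 for MED20, and also for NCL, with −1.15 and −1.39. NCL, the nucleolar protein nucleolin, differed by −0.48 and −1.66 in Nalm6 and −0.06 and −0.35 in the KMT2A line.

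The hairpins took opposite directions past 2-fold for 2 genes in Nalm6, both lower with shCREB2 and higher with shCREB3. ID3, an inhibitor of E proteins, was at 8.60 with scrambled, 7.54 with shCREB2 and 9.73 with shCREB3, and NPY, a neuropeptide, at 9.27, 8.07 and 10.31. In the KMT2A line, NPY differed by −0.50 and 0.12 and ID3 by −0.05 and 0.38. In the other direction MARCKSL1 differed by 0.74 and −0.91, CHST15 by 0.67 and −0.72, and the ETS factor ETV5 by 0.66 and −0.89 in Nalm6. No gene was 2-fold higher with shCREB2 and 2-fold lower with shCREB3.

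The small differences in RS4;11 resembled those of the same hairpin in Nalm6. These comparisons have no array in common between the lines. Over 11940 genes the Pearson correlation of the differences was 0.42 between the shCREB2 arrays of both lines and 0.39 between the shCREB3 arrays (Spearman 0.36 and 0.32). With unlike hairpins it was 0.15 for Nalm6 shCREB2 with shCREB3 in the KMT2A line and 0.06 for Nalm6 shCREB3 with shCREB2 in the KMT2A line (Spearman 0.14 and 0.04). Genes are not independent replicates, so these correlations are descriptions with no p-value.

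The genes past 2-fold in Nalm6 gave the same order. Of 120 genes at least 2-fold higher on Nalm6 shCREB2, 104 (86.7%) were higher on RS4;11 shCREB2 and 84 with shCREB3 in the KMT2A line. Of all genes kept, 50.7% and 49.9% were higher on these arrays. Of the 173 lower genes, 155 (89.6%) and 109 (63.0%) were lower, against 49.0% and 49.8% of all genes kept. Of 37 genes at least 2-fold lower on Nalm6 shCREB3, 36 (97.3%) were lower with shCREB3 in the KMT2A line and 18 (48.6%) with shCREB2 in the KMT2A line. Of the 23 higher genes, 21 (91.3%) and 11 (47.8%) were higher. The shares of all genes kept were 49.8% and 49.0% lower and 49.9% and 50.7% higher on these arrays in the same order. The size in the KMT2A line was small throughout: the 173 genes had a median of −1.22 on Nalm6 shCREB2, −0.19 with shCREB2 in the KMT2A line and −0.04 with shCREB3 in the KMT2A line, and the 37 genes had −1.26 on Nalm6 shCREB3, −0.32 with shCREB3 in the KMT2A line and 0.00 with shCREB2 in the KMT2A line. Both differences of the KMT2A line share 1 scrambled array.

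**Figure D4:**
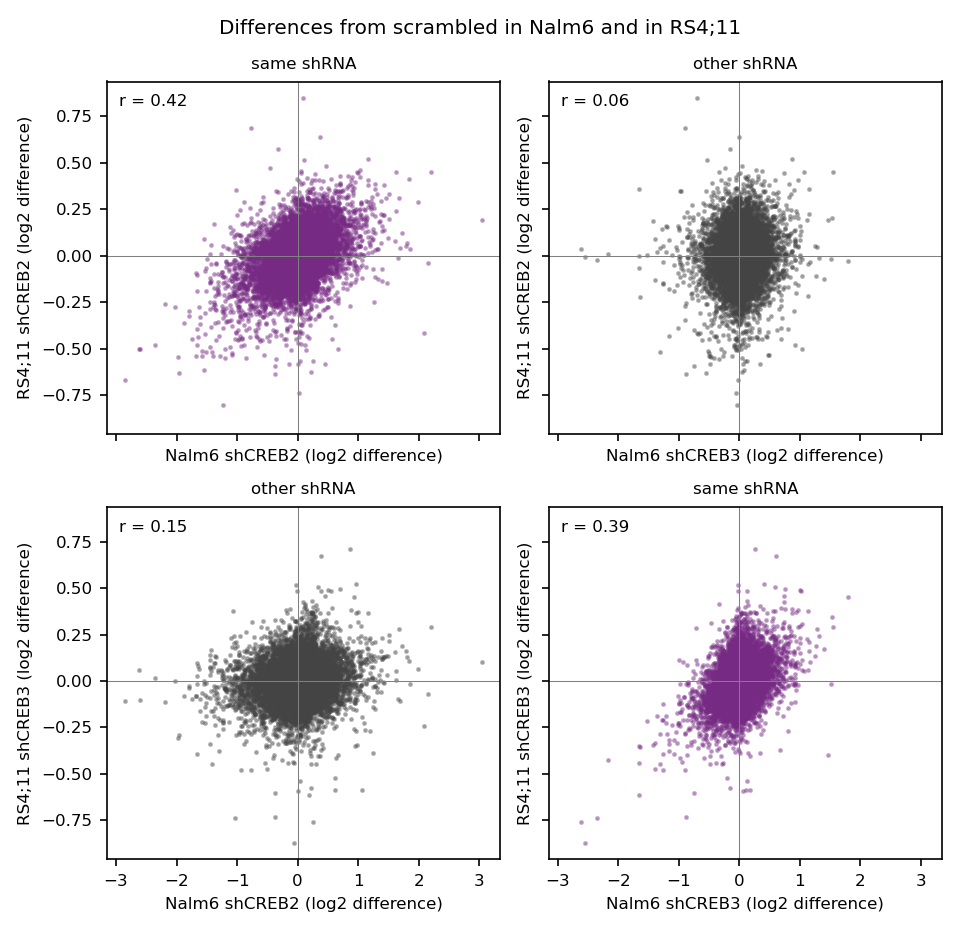
Log2 differences from scrambled in Nalm6 (horizontal) and the KMT2A line (vertical, on a narrower scale), each point being 1 of 11940 genes, with the Pearson correlation in each panel. The panels with the same hairpin in both lines (0.42 and 0.39) slope upwards and the panels with unlike hairpins (0.15 and 0.06) do so less.

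In RS4;11, 3 symbols were at least 1.5-fold lower on both shCREB arrays and none was higher. They were CD163L1, its older entry M160 and TNFSF4, the ligand of OX40. TNFSF4 was at 8.36 with scrambled, 7.78 with shCREB2 and 7.77 with shCREB3, and was not detected on any Nalm6 array. ATP9A, a phospholipid flippase, was at 8.88, 8.31 and 8.34, and also was not detected in Nalm6. For both genes the shCREB arrays lay below their control and close to each other. No gene met the naming rule of at least 0.50 higher on both arrays. The following genes were named after their values were seen. The highest single differences were ALOX5AP, which activates leukotriene synthesis, at 0.85 with shCREB2 (levels 8.29, 9.14 and 8.23) and the entry listed as MIR1978 at 0.71 with shCREB3 (12.71, against 11.73 with shCREB2, which had a difference of −0.27). HDHD1A (PUDP), a pseudouridine phosphatase, was the lowest with shCREB2, at 9.03, 8.23 and 8.92, and in Nalm6 it was at 8.34, 7.11 and 8.31.

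In the test of the Nalm6 difference minus the RS4;11 difference, BTBD6, RHEB, PDLIM7, ARPC1A and SPRY2 had the smallest p-values among genes higher in Nalm6 (adjusted p = 1.0 by limma). RHEB, the GTPase that activates mTORC1, was at 10.12, 10.75 and 10.76 in Nalm6 and at 11.62, 11.52 and 11.47 in the KMT2A line. SPRY2, a feedback inhibitor of receptor tyrosine kinase signalling, was at 8.90, 9.69 and 9.82 in Nalm6 and at 11.08, 10.93 and 11.07 in the KMT2A line. Both genes were higher in Nalm6 and slightly lower in the KMT2A line with each hairpin. On the other side stood USP38, TK1, the adaptor PACSIN2 (−0.69 and −0.73 in Nalm6, −0.01 and 0.04 in the KMT2A line), the phosphatase PPM1M (−0.77 and −0.73, 0.01 and −0.06) and LMNB2, a nuclear lamin (−0.80 and −0.79, 0.01 and −0.10). The adjusted p was 1.0 for each of these genes too.

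B-lineage genes gave a mixed picture. Of 22 genes of the pre-B-cell receptor and its signalling, 13 were higher on Nalm6 shCREB2 (median 0.07) and 20 on Nalm6 shCREB3 (median 0.31), against medians of 0.02 and 0.03 in RS4;11. CD72, a B-cell coreceptor, was at 8.29, 8.94 and 9.21 in Nalm6 and the tetraspanin CD53 at 9.06, 9.82 and 9.79, so both hairpins were high. The kinase SYK was at 10.88, 9.97 and 11.22, low with shCREB2 only. The 14 MHC class II genes had medians of 0.07 and 0.29 in Nalm6 and −0.11 and 0.09 in the KMT2A line, with 14 higher on Nalm6 shCREB3. The 18 B-lineage factors and RAG genes had medians of −0.23 and 0.21 in Nalm6 and −0.03 and 0.06 in the KMT2A line.

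Ribosome biogenesis genes were lower on 34 of 37 genes with shCREB2 and on 36 with shCREB3 in Nalm6 (medians −0.37 and −0.27), and on 29 and 22 in the KMT2A line (medians −0.09 and −0.02), whereas the 53 cytosolic ribosomal proteins had medians between −0.01 and 0.03. Textbook CREB targets were not lower in Nalm6: 11 of 16 were higher with shCREB2 and 13 with shCREB3 (medians 0.40 and 0.21), with JUND, an AP-1 subunit, at 11.55, 12.78 and 12.37. In the KMT2A line, 4 and 7 of the 16 were higher (medians −0.04 and 0.00), and EGR1, an immediate early factor, differed by −0.51 and −0.24. Among 29 inducers of apoptosis the medians were 0.03 and −0.02 in Nalm6 and 0.07 and −0.02 in the KMT2A line, and among 13 inhibitors they were −0.03 and 0.05, and 0.00 and 0.02. CRADD, an adaptor of caspase-2, differed by 1.11 and 0.61 in Nalm6, and BIRC5 (survivin) by −0.91 and −0.49. Of 32 small noncoding RNAs, 9 were at least 2-fold higher on Nalm6 shCREB2 and 2 on Nalm6 shCREB3, against 1.01% and 0.193% of all genes. No gene of these lists passed the test.

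**Figure D5:**
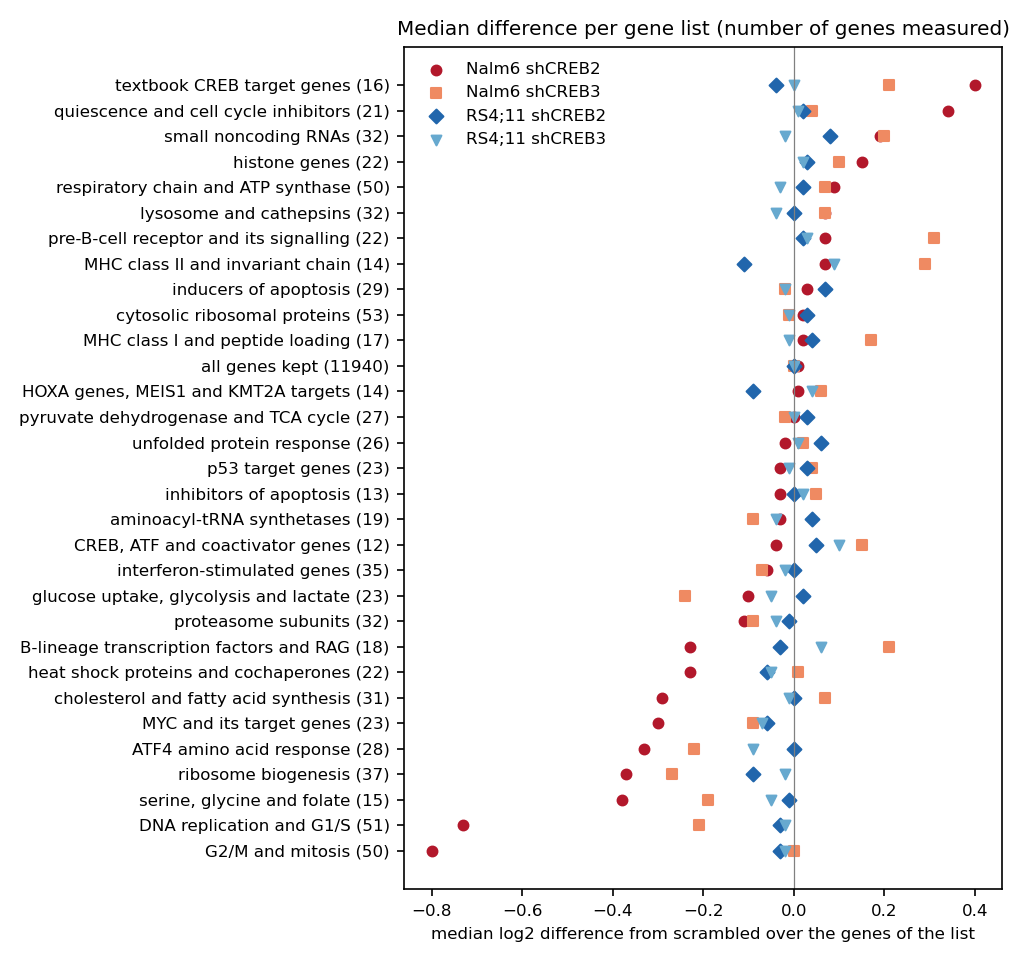
Median log2 difference from scrambled over the genes of each list except the genes the study names (number of genes measured in brackets), with 1 symbol for each of the 4 shCREB arrays and all genes kept as reference. G2/M and mitosis (−0.80) and DNA replication (−0.73) are lowest on Nalm6 shCREB2, and both shCREB arrays of the KMT2A line stay between −0.11 and 0.10.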

How the data were processed

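The labels describe 12 arrays, with 1 array for each of 4 cell lines and 3 vectors, and the 6 arrays of Nalm6 and RS4;11 were analysed. By the methods, arrays were Illumina HumanHT-12 v4 BeadChips. The authors deposited signals per probe without normalization, each with a detection p-value, in which 98.1% of cells had lost their decimal mark, and a table of 34694 rows, quantile-normalized between arrays by the authors. The values of that deposited table are natural log values (slopes of 0.966 to 1.04 of the natural log of the signal on them), although the methods state log2, and were divided by the natural log of 2. In genes with several probes the deposited value was taken as the mean of the probes, so a probe that responds is diluted by those that do not. This was checked for the 5599 genes with 2 probes on the Nalm6 scrambled array, with decimal marks placed to fit. The mean lay within 0.02 (natural log) for 99.4% of them. Genes with more probes, CREB1 among them, were not checked. The 3270 rows with no gene symbol were left out. Genes entered when 3 or more of the 6 arrays detected them (p under 0.01), which left 11940. No depth exists for arrays, and their number limits the precision.

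Differences were taken within a line, and limma 3.58.1 (R 4.3.3) was fitted with the line as a block, for both lines together and with an effect per line, and Benjamini-Hochberg adjustment over all genes kept. The pairing comes from the same cell line. Tested on simulated data, these fits recovered 97% of changes of 1 on the log2 scale for both lines and 71% for Nalm6. They also called 14 and 8 unchanged genes. For the difference between lines they recovered 9% and called 2 unchanged genes. The simulation gave each gene the same spread in both lines and the same change with both hairpins. In the data the hairpins spread more widely in Nalm6 than in RS4;11, so these shares need not hold for the data. The share recovered over both lines when the lines differ in size of response was not tested. DYNLRB1, whose differences were larger in Nalm6, had an estimate of 1.12 over both lines (standard error 0.38, adjusted p = 0.942 by limma). Members and gene lists were chosen with earlier results of these data known. Genes were named by size of difference: in Nalm6, in RS4;11, in both lines, on Nalm6 shCREB2 beyond the other arrays, with opposite hairpins, by the smallest p of the difference, up to 2 per list each way in each line, and all that the study names (CIAO1, entered in that list by mistake for a gene not matched here, was left out of its counts). Open reading frame and clone names were left out. Summaries were made in Python with numpy and pandas.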

Additional observations from a re-analysis of the deposited data

Results flagged for a closer look

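Samples stand apart here when the gap to the nearest of the other 3 shCREB arrays takes most of the range of the 4 differences. Chance gives this for about 1 in 20 groups of 4 independent values of equal spread. The 4 differences here share scrambled arrays and differ in spread, with an SD of 0.376 on Nalm6 shCREB2 and 0.107 to 0.249 on the others. That rate therefore does not hold for them. Since the genes named for Nalm6 shCREB2 were chosen for lying beyond the other arrays, that array had to stand apart for many of them. On Nalm6 shCREB2 the differences were 3.05 for GBP2, 2.09 for KLF2, 1.86 for LY96, 1.72 for GZMA, 1.69 for GZMK, 1.67 for PPP1R16B and 1.66 for SLC2A3. On the low side of the same array were DCTPP1 (−2.60), DNTT (−2.19), MYC (−2.03), MRPL52 (−1.88) and HNRNPA0 (−1.79). PSAT1 (−1.97) and MCM10 (−1.61), which the rule for that array had not picked, stood apart on it as well. So did MME (−1.50), which was named after its values were seen.

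The same array stood apart for the medians of 3 gene lists, namely G2/M and mitosis (−0.80), MYC and its target genes (−0.30) and quiescence and cell cycle inhibitors (0.34). CREB1 stood apart on RS4;11 shCREB2, where its difference was −0.23 and the other 3 arrays lay above their controls. The lines took opposite directions with both hairpins for RHEB, SPRY2 and SLC2A3, whose smaller Nalm6 differences were 0.63, 0.80 and 0.14 and whose RS4;11 differences lay between −0.15 and −0.01. The difference between the lines did not pass limma for these 3 genes (adjusted p = 1.0).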

How the results depend on the processing

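The count of 0 genes past the test held for both lines, Nalm6, RS4;11 and the difference between lines under cyclic loess, median-scaled signals of 1-probe genes, background subtraction, both other detection filters, 1-probe genes, trend and robust eBayes and all 12 arrays in 1 fit, and for both lines also with shRNAs averaged within each line. With no replicate block, the line left out, it was 0 as well (83 genes at an unadjusted p under 0.05 against 374 with the block). The methods' t-test without adjustment gave 190 for both lines. Leaving out 1 array gave 0 to 0 for both lines and RS4;11, 0 to 2323 for Nalm6 (108 without Nalm6 shCREB2, 2323 without Nalm6 shCREB3) and 0 to 391 for the difference (391 without Nalm6 shCREB3). A scrambled array was left out together with its whole line, so the fit named for both lines then held only the other line. Slide as a block was not run, since the headers read here give no slides.

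Counts past 2-fold for Nalm6 shCREB2, Nalm6 shCREB3, RS4;11 shCREB2 and RS4;11 shCREB3 were 1472, 504, 48 and 41 with background subtracted, and 1282, 397, 12 and 11 at 1.5-fold. With median-scaled signals the median absolute difference in RS4;11 was 0.0831 and 0.0754 and the SD 0.137 and 0.12. Without RS4;11 shCREB3 the CREB1 difference in RS4;11 was −0.23, and without RS4;11 shCREB2 the CREB1 difference between lines was −0.05. The CREB1 differences ranged over the left-out shCREB arrays from 0.02 to 0.23 for both lines, from 0.18 to 0.23 for Nalm6, from −0.23 to 0.25 for RS4;11 and from −0.05 to 0.43 between lines. Alternatives were run for 84 of the 257 named genes. Of their 949 values, which leave out the CREB1 values just given, 0 changed sign and 40 passed the test, each without 1 of the Nalm6 shCREB arrays. Of 744 list medians, 39 changed sign. All of these were under 0.1 in size as reported, and 4 reached 0.1 or more in size under the alternative, the largest being 0.23 for CREB, ATF and coactivator genes on Nalm6 shCREB2 among genes detected on all 6 arrays (−0.04 as reported). Without Nalm6 shCREB2, an alternative chosen after seeing the data, 2134 genes were higher and 2114 lower on all remaining shCREB arrays.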

Other observations

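Other gene lists had small differences on all 4 shCREB arrays, given here in the order Nalm6 shCREB2, Nalm6 shCREB3, RS4;11 shCREB2 and RS4;11 shCREB3. Of 32 proteasome subunits, 21, 26, 17 and 22 were lower (medians −0.11, −0.09, −0.01 and −0.04). Of 19 aminoacyl-tRNA synthetases, 11, 17, 8 and 14 were lower (medians −0.03, −0.09, 0.04 and −0.04). Of 22 histone genes, 15, 18, 15 and 14 were higher (medians 0.15, 0.10, 0.03 and 0.02). Of 22 heat shock proteins and cochaperones, 16, 10, 18 and 14 were lower (medians −0.23, 0.01, −0.06 and −0.05), although DNAJB1 was higher on all 4 arrays. Of 50 genes of the respiratory chain and ATP synthase, 37, 30, 32 and 17 were higher (medians 0.09, 0.07, 0.02 and −0.03). Of 35 interferon-stimulated genes, 20, 20, 17 and 23 were lower (medians −0.06, −0.07, 0.00 and −0.02), and GBP2, whose largest difference was on Nalm6 shCREB2, is described above. No gene of these lists passed the limma test at an adjusted p under 0.05.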
